A study of Mus musculus with 2 samples.

Results

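The liver genes described here are the 10 that carry methionine through its cycle, on to cysteine by transsulfuration, and from cysteine to taurine: Mat1a, Mat2a, Gnmt, Ahcy, Bhmt, Bhmt2, Cbs, Cth, Cdo1 and Csad. They were chosen by name from knowledge of the pathway, with earlier results of these data known. All 10 were found among the 26440 genes of the deposited tables, each under 1 RefSeq accession. Liver RNA of BALB/c mice, collected 11 days after birth, had been sequenced as 1 wild-type library and 1 library (the knockout library) from mice in which SRSF2, an exon-binding splicing protein of the serine/arginine-rich family, is labelled as deleted in the liver (SRSF2-/-). The sources used here do not give the Cre driver, the deleted part of the gene or the number of animals behind each library. The level of Srsf2 itself was 27.9 against 11.8 FPKM (wild-type first; FPKM is a level corrected for transcript length and library depth). The libraries also differed in sex-linked transcripts, Xist having 27.4 against 0.014 FPKM and the Y-linked Ddx3y 0 against 7.02 FPKM, so genotype and the sex of the mice cannot be told apart. The tables held 22407743 reads for the wild-type and 22111605 for the knockout library. With 1 library per genotype no difference could be set against the spread between animals, so no test was made and every value describes these 2 libraries.

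In the methionine cycle a methionine adenosyltransferase (MAT) makes S-adenosylmethionine (SAM), the methyl donor of the cell. Methyltransferases turn SAM into S-adenosylhomocysteine, which is hydrolysed to homocysteine. Homocysteine is either remethylated to methionine or passed to cysteine, the precursor of glutathione and taurine. Adult hepatocytes make MAT from Mat1a, while Mat2a is the form of fetal liver, of dividing hepatocytes and of most other tissues.

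Levels are given in FPKM, with the wild-type value always first. Bracketed ranges are 95% exact intervals and cover counting error only. Sizes of difference use log2((knockout FPKM + 1) / (wild-type FPKM + 1)), and a gene is said to be called when this reaches 2-fold. Of the 10 genes, 3 were called lower in the knockout library (Mat1a, Bhmt and Cbs) and 1 was called higher (Mat2a). Over all 12477 genes with at least 1 FPKM in either library, 2.95% were called lower and 19.2% higher. The median log2 ratio was -0.06 over the 10 genes and 0.55 over all tested genes. Since the ratios of all genes lay high as a whole, each was also taken relative to that median of 0.55. On this centred scale the 10 genes had a median of -0.61, with 3 called lower and 0 higher, beside 6.66% lower and 5.67% higher of all tested genes. The genes lower by 2-fold are those of hepatocyte SAM synthesis, betaine-dependent remethylation and the first step of transsulfuration. In whole tissue, fewer hepatocytes and less RNA per hepatocyte cannot be told apart. The 8 hepatocyte markers, none at 0, summed to 96352 against 45291 FPKM, with log2 ratios from -1.77 to 0.04 and a median of -1.15. Relative to that hepatocyte median, 0 of the 10 genes were lower by 2-fold and 5 were higher. Over all 12477 tested genes, 80 were lower and 11035 higher by 2-fold on that scale. The medians there were 1.09 for the 10 genes and 1.70 for all tested genes.

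The pairs Mat1a with Mat2a and Bhmt with Bhmt2 are related genes, so the sequences show how far reads could tell them apart. The coding sequences of Mat1a (1191 bases) and Mat2a (1188 bases) in GENCODE M21 were 73.5% identical over 1185 aligned bases, and their longest run of identical aligned bases was 15. The stretch around that run, bases 308 to 397 of the Mat1a and 305 to 394 of the Mat2a coding sequence, is printed 5′ to 3′ with the 17 mismatched bases in capitals.
Mat1a: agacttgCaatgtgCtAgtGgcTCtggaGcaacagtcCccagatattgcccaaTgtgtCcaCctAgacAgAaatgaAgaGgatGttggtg
Mat2a: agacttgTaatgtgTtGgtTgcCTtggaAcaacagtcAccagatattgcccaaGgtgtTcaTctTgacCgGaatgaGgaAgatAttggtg
No window of 25 bases of the Mat1a transcript was found in the Mat2a transcript (0 of 3444). A read of that length or longer could therefore match exactly to no more than 1 of these transcripts.

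Bhmt and Bhmt2 are neighbours on chromosome 13, with no other protein-coding gene of the RefSeq table between their starts. Their coding sequences (1224 and 1092 bases) were 75.3% identical over 1091 aligned bases, but held 1 identical run of 59 bases. It lies within bases 864 to 953 of the Bhmt and 837 to 926 of the Bhmt2 coding sequence, printed 5′ to 3′ with the 4 mismatched bases in capitals.
Bhmt: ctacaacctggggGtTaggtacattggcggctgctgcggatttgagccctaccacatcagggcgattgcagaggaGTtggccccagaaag
Bhmt2: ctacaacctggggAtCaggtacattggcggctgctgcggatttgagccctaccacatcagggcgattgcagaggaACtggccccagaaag
Of the 2456 windows of 35 bases in the Bhmt transcript, 28 also stood in the Bhmt2 transcript, and of the 2441 windows of 50 bases, 10 did. Neither the read length nor the treatment of reads with several matches is stated in the sources used here. Part of the reads of this pair could therefore have been assigned either way, and the windows counted exact matches only. Bhmt2 had fewer reads than Bhmt (4635 against 48656 in the wild-type library, 3985 against 23297 in the knockout library). Such reads would thus weigh more on the level and share of Bhmt2, which its counting intervals do not cover.

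Mat1a, the MAT gene of adult hepatocytes, had 927 FPKM from 85741 wild-type reads and 387 FPKM from 35340 knockout reads. It was the most abundant of the 10 genes in the wild-type library, at place 47 of all genes by FPKM, and stood at place 151 in the knockout library. This is a 2.40-fold lower level in the knockout liver (2.37 to 2.43), with log2 ratios of -1.26 on the deposited scale and -1.81 relative to all genes.

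Mat2a, the MAT gene of fetal liver and extrahepatic cells, went the other way. It had 16.8 FPKM from 1250 wild-type reads and 42.9 FPKM from 3154 knockout reads. Its level was 2.55-fold higher in the knockout liver (2.39 to 2.73), which is 1.30 on the log2 scale. Relative to all genes the ratio was 0.75, which is under 2-fold, so the call of Mat2a depended on the scale. The share of the pair's FPKM within 1 library does not depend on that scale. Mat2a made up 1.78% of the summed Mat1a and Mat2a FPKM in wild-type liver (1.68 to 1.88) and 9.99% in knockout liver (9.66 to 10.3). Per length, the wild-type library thus held 55.2 times as much Mat1a as Mat2a, and the knockout library 9.01 times as much. Mat1a remained the more abundant MAT transcript, and the summed level of both genes was 944 against 430 FPKM, 2.20-fold lower in the knockout.

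**Figure D1:**
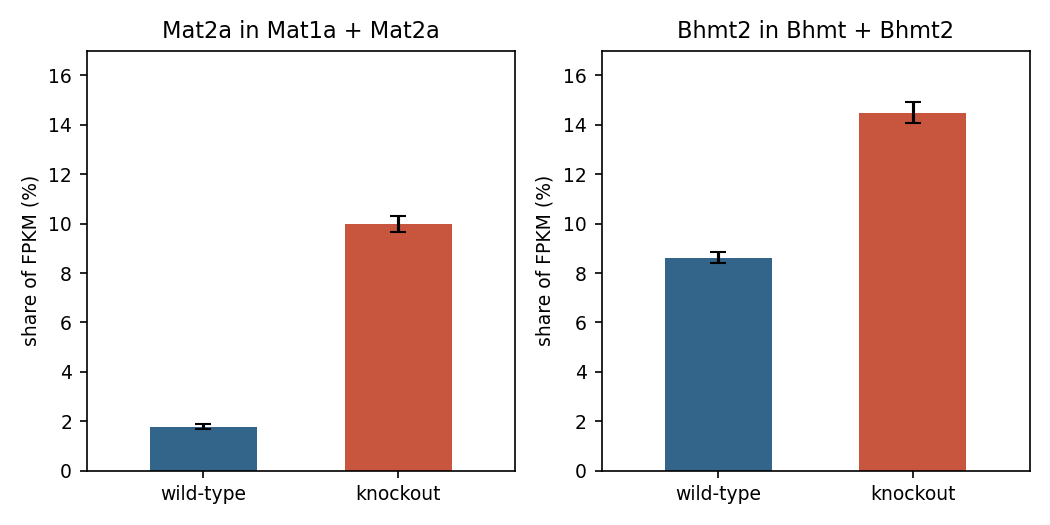
Share of Mat2a in the summed FPKM of Mat1a and Mat2a (left) and of Bhmt2 in the summed FPKM of Bhmt and Bhmt2 (right), in percent, for the 1 wild-type and the 1 knockout library, with 95% exact counting intervals as error bars. Mat2a stood at 1.78% and 9.99%, and Bhmt2 at 8.63% and 14.5%.

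Other genes of SAM synthesis had higher values in the knockout library by less than 2-fold. Mat2b encodes the regulatory subunit that binds the Mat2a product, and had 10.5 against 20.2 FPKM. Mettl16 and Nudt21 encode RNA-binding proteins that act in the splicing of the last intron of Mat2a or its retention, and Ythdc1 encodes a nuclear reader of methylated adenosine in RNA. Mettl16 had 2.53 against 4.20 FPKM, Nudt21 20.3 against 27.8 FPKM and Ythdc1 4.84 against 8.93 FPKM. Across these 4 genes the median log2 ratio was 0.66 (0.11 relative to all genes). Of the 4, 0 were called, beside 2.95% lower and 19.2% higher of all tested genes. The tables hold 1 accession of Mat2a, so spliced and intron-retaining transcripts were not told apart.

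Gnmt encodes glycine N-methyltransferase, which removes excess SAM by methylating glycine and is one of the most abundant methyltransferases of liver. Gnmt had 169 FPKM from 6564 wild-type reads and 307 FPKM from 11803 knockout reads. This 1.82-fold higher level (1.77 to 1.88) is under the 2-fold rule, with log2 ratios of 0.86 on the deposited scale and 0.31 relative to all genes. Gnmt is also known as an abundant transcript of the exocrine pancreas. The 10 exocrine pancreas markers summed to 9.72 FPKM in the wild-type library (Cel and Pnlip at 0 reads) and to 720 FPKM in the knockout library (none at 0). On the log2 scale 8 of the 9 tested pancreas markers were called higher, beside 19.2% of all tested genes. The part of pancreas transcripts in the Gnmt value was not tested.

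Of the other SAM-dependent methyltransferases, 19 were tested on a list of 20, with a median log2 ratio of 0.25. Of these, 1 was called lower and 1 higher, beside 2.95% and 19.2% of all tested genes. Relative to all genes the median was -0.30, with 3 called lower and 0 higher, beside 6.66% and 5.67%. Inmt, whose enzyme methylates indole amines, had 165 against 10.6 FPKM, a 15.6-fold lower level (13.8 to 17.6). Prmt5, the main enzyme of symmetric arginine dimethylation and a modifier of splicing proteins, had 6.21 against 15.3 FPKM, a 2.46-fold higher level (2.20 to 2.76) whose log2 ratio of 1.18 is under 2-fold relative to all genes. Pemt, which makes phosphatidylcholine and is held to be a major user of hepatic SAM, had 258 against 232 FPKM. Mettl7b, an abundant gene for a thiol methyltransferase, had 247 against 228 FPKM.

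Ahcy encodes the hydrolase that splits S-adenosylhomocysteine into homocysteine and adenosine. Ahcy had 209 FPKM from 14113 wild-type reads and 215 FPKM from 14299 knockout reads, a knockout over wild-type ratio of 1.03 (1.002 to 1.05). Its log2 ratio was 0.04 on the deposited scale and -0.52 relative to all genes, so its sign depended on the scale. The related Ahcyl1 had 13.1 against 16.4 FPKM and Ahcyl2 had 1.38 against 2.87 FPKM. Adk, the adenosine kinase gene that removes the other product, stood at 121 FPKM in each library, and Ada, the adenosine deaminase gene, at 0.597 against 1.81 FPKM. The median log2 ratio of these Ahcy-like and adenosine genes was 0.51 (-0.05 relative to all genes). Of the 4, 0 were called, beside 2.95% lower and 19.2% higher of all tested genes. With a pseudocount of 0.1 the low Ahcyl2 and Ada were called higher, as were 3797 of all 12477 tested genes.

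**Figure D2:**
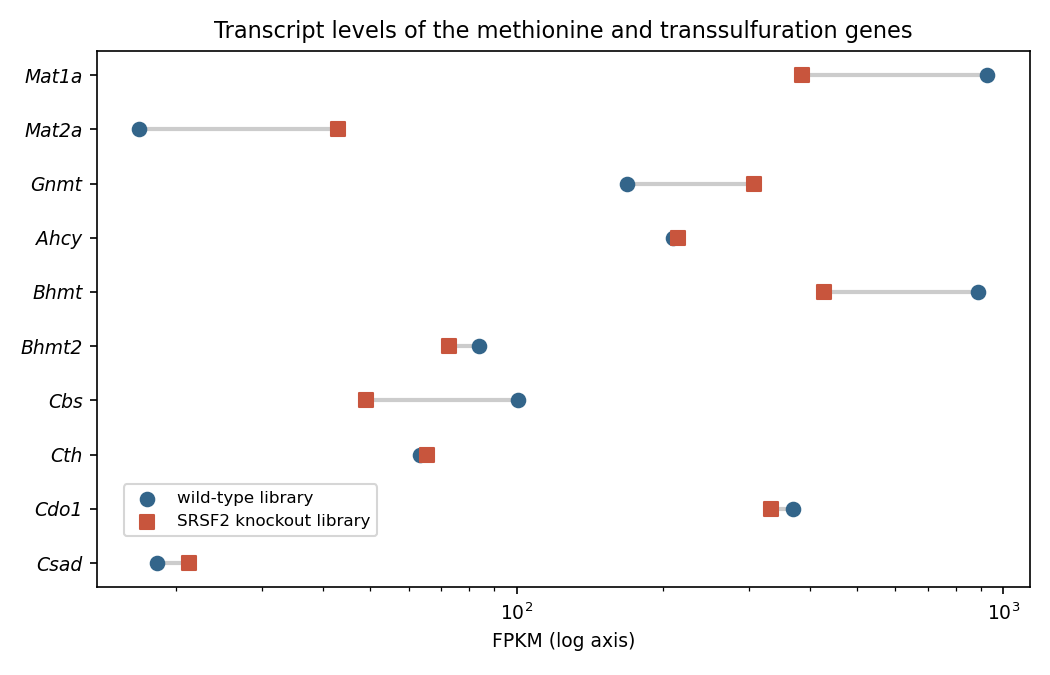
FPKM on a log axis for each of the 10 genes in the wild-type library (circles) and the SRSF2 knockout library (squares), 1 library per genotype. Mat1a, Bhmt and Cbs lie to the left in the knockout library, Mat2a and Gnmt to the right, and the symbols of Ahcy and Cth touch.

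Bhmt encodes betaine-homocysteine methyltransferase, which returns a methyl group from betaine to homocysteine in liver and kidney. Bhmt had 886 FPKM from 48656 wild-type reads and 429 FPKM from 23297 knockout reads. The 2.06-fold lower level (2.03 to 2.10) corresponds to log2 ratios of -1.04 on the deposited scale and -1.60 relative to all genes. Bhmt was nonetheless the most abundant of the 10 genes in the knockout library.

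Bhmt2, whose product uses S-methylmethionine as methyl donor, had 83.6 FPKM from 4635 wild-type reads and 72.7 FPKM from 3985 knockout reads. It was 1.15-fold lower in the knockout liver (1.10 to 1.20), with log2 ratios of -0.20 and -0.75 on those scales. Bhmt2 took 8.63% of the summed FPKM of the pair in wild-type liver (8.39 to 8.87) and 14.5% in knockout liver (14.1 to 14.9). The neighbouring genes thus differed in the size of their ratio by more than counting error, and the pair together had 969 against 502 FPKM.

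Of 7 tested genes that supply betaine, or use the dimethylglycine left by it, 2 were called lower and 0 higher, beside 2.95% and 19.2% of all tested genes. The median log2 ratio was -0.60, with 6 of the 7 below 0. Relative to all genes the median was -1.16, with 5 called lower beside 6.66%. Relative to the hepatocyte markers it was 0.54, with 0 called lower and 1 higher, and 4 of the 6 genes below 0 turned positive. All 12477 tested genes had a median of 1.70 on that scale, with 80 called lower and 11035 higher. Sardh, the mitochondrial sarcosine dehydrogenase gene, had 128 against 44.6 FPKM, a level 2.87-fold lower (2.78 to 2.96). Slc6a12, which encodes a betaine and GABA carrier, had 27.8 against 9.51 FPKM, which is 2.92-fold lower (2.67 to 3.20). Pipox, the peroxisomal sarcosine oxidase gene, was the exception at 78.5 against 122 FPKM. Sarcosine is the product of Gnmt as well as of dimethylglycine oxidation.

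The folate-linked branch, in which methionine synthase remethylates homocysteine, held no called gene among its 8 tested members. Over all tested genes 2.95% were called lower and 19.2% higher. Relative to all genes 2 of the 8 were lower by 2-fold, beside 6.66%. With a pseudocount of 0.1 the low Mtrr was called higher, as were 3797 of all 12477 tested genes. The median log2 ratio was 0.02 on the deposited scale and -0.53 relative to all genes. Shmt1 and Mthfd1, which charge folate with carbon units, had 48.6 against 33.2 FPKM and 45.4 against 35.6 FPKM. Mtrr, the reductase that reactivates methionine synthase, had 155 reads in the wild-type library against 369, and Mmadhc, a cobalamin trafficking gene, had 11.3 against 22.4 FPKM.

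Cbs encodes cystathionine beta-synthase, which commits homocysteine to transsulfuration and is activated by SAM. Cbs had 101 FPKM from 6892 wild-type reads and 49.0 FPKM from 3319 knockout reads. That is 2.05-fold lower in the knockout liver (1.97 to 2.14), at log2 ratios of -1.02 on the deposited scale and -1.58 relative to all genes. The counting interval of Cbs reached under 2-fold, and with a pseudocount of 5 the gene was no longer called.

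Cth encodes cystathionine gamma-lyase, the next enzyme, which releases cysteine. Cth had 63.5 FPKM from 3032 wild-type reads and 65.4 FPKM from 3088 knockout reads, a ratio of 1.03 (0.980 to 1.08). Its log2 ratio was 0.04 on the deposited scale and -0.51 relative to all genes, so its sign depended on the scale as that of Ahcy did. The order of these genes by level differed between the libraries, with Cbs above Cth in wild-type and below it in knockout liver.

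**Figure D3:**
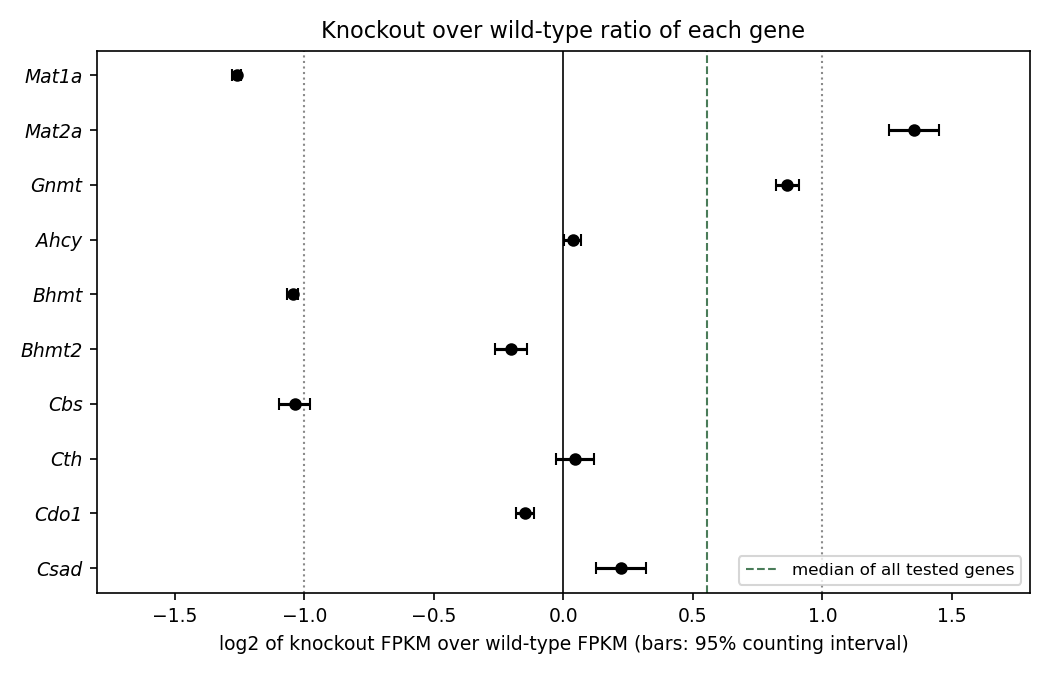
Log2 of the knockout over the wild-type FPKM of each of the 10 genes (points) with its 95% exact counting interval (bars), without a pseudocount. Dotted lines mark 2-fold, and the dashed line marks the median of all tested genes, 0.55 on the scale with a pseudocount of 1. Mat1a and Bhmt lie wholly left of the lower 2-fold line, Cbs straddles it, and Mat2a lies right of the upper one.

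Cdo1 encodes cysteine dioxygenase, which oxidises cysteine on the way to taurine and sulfate. It was among the most abundant of the 10 genes, with 370 FPKM from 15006 wild-type reads and 334 FPKM from 13378 knockout reads. Its level was 1.11-fold lower in the knockout liver (1.08 to 1.13), with log2 ratios of -0.15 on the deposited scale and -0.70 relative to all genes. Csad encodes the decarboxylase that forms hypotaurine from the product of Cdo1. Csad had 18.2 FPKM from 1672 wild-type reads and 21.3 FPKM from 1927 knockout reads. It was 1.17-fold higher (1.09 to 1.25), with a log2 ratio of 0.21 on the deposited scale and -0.34 relative to all genes. Neither gene was called on either scale.

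Further genes of cysteine oxidation, sulfide oxidation and taurine use spread widely. Of the 10 tested on a list of 11, 2 were called lower and 1 higher, beside 2.95% and 19.2% of all tested genes. The median log2 ratio was -0.34. Relative to all genes it was -0.90, with 5 lower and 1 higher, beside 6.66% and 5.67%. Relative to the hepatocyte markers the median was 0.80, with 0 lower and 5 higher. On that scale all 12477 tested genes had a median of 1.70, with 80 lower and 11035 higher. Suox, the sulfite oxidase gene, had 34.8 against 12.0 FPKM, which is 2.90-fold lower (2.67 to 3.16). Ethe1, the persulfide dioxygenase gene of mitochondria, had 10.7 against 36.0 FPKM, which is 3.37-fold higher (3.02 to 3.76). The abundant Tst and Got1, a sulfurtransferase gene and an aspartate aminotransferase gene, had 105 against 110 FPKM and 90.9 against 126 FPKM. Gadl1, a relative of Csad, had 0 wild-type and 2 knockout reads.

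Glutathione synthesis draws on the same cysteine. Of its 8 tested genes on a list of 9, 1 was called higher and 0 lower, beside 19.2% and 2.95% of all tested genes. The median log2 ratio was 0.45. Relative to all genes it was -0.10, with 0 called, beside 5.67% higher and 6.66% lower. Gclm and Gclc, the subunits of the rate-limiting glutamate-cysteine ligase, had 43.7 against 45.3 FPKM and 41.8 against 42.5 FPKM. Gsr, the glutathione reductase gene, had 8.39 against 24.8 FPKM, which is 2.96-fold higher (2.69 to 3.25), and Ggct, a gamma-glutamylcyclotransferase gene, had 2.41 against 5.18 FPKM.

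SAM also feeds polyamine synthesis, whose by-product is recycled to methionine. Of 11 tested genes of this branch, 10 had a log2 ratio above 0, beside 84.5% of all tested genes. The median of the 11 genes was 0.64 (0.08 relative to all genes). Of them 2 were called higher and 0 lower, beside 19.2% and 2.95% of all tested genes. Relative to all genes 0 were higher and 1 lower, beside 5.67% and 6.66%. Amd1, which decarboxylates SAM, had 4.57 against 11.4 FPKM, which is 2.49-fold higher (2.21 to 2.81). Sat1, the polyamine acetyltransferase gene, had 27.2 against 81.4 FPKM, which is 2.99-fold higher (2.76 to 3.24). Oaz1, which encodes the antizyme that restrains polyamine synthesis, was the most abundant of the branch at 132 against 179 FPKM.

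Of 8 genes for carriers of methionine, cystine or cysteine, 7 were tested, with a median log2 ratio of 0.61 (0.06 relative to all genes). Slc7a11 was not tested, being under 1 FPKM in each library, with 8 wild-type and 128 knockout reads (0.033 against 0.533 FPKM). Of the 7, 2 were called higher and 1 lower, beside 19.2% and 2.95% of all tested genes. Relative to all genes 0 were higher and 1 lower, beside 5.67% and 6.66%. Slc3a2, the heavy chain shared by several amino acid exchangers, had 11.4 against 27.7 FPKM, which is 2.42-fold higher (2.23 to 2.62). Slc3a1, the heavy chain of the epithelial cystine transporter, had 4.12 against 1.13 FPKM, which is 3.66-fold lower (2.79 to 4.86). Slc38a2, a stress-regulated carrier of neutral amino acids, had 25.6 against 30.2 FPKM.

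**Figure D4:**
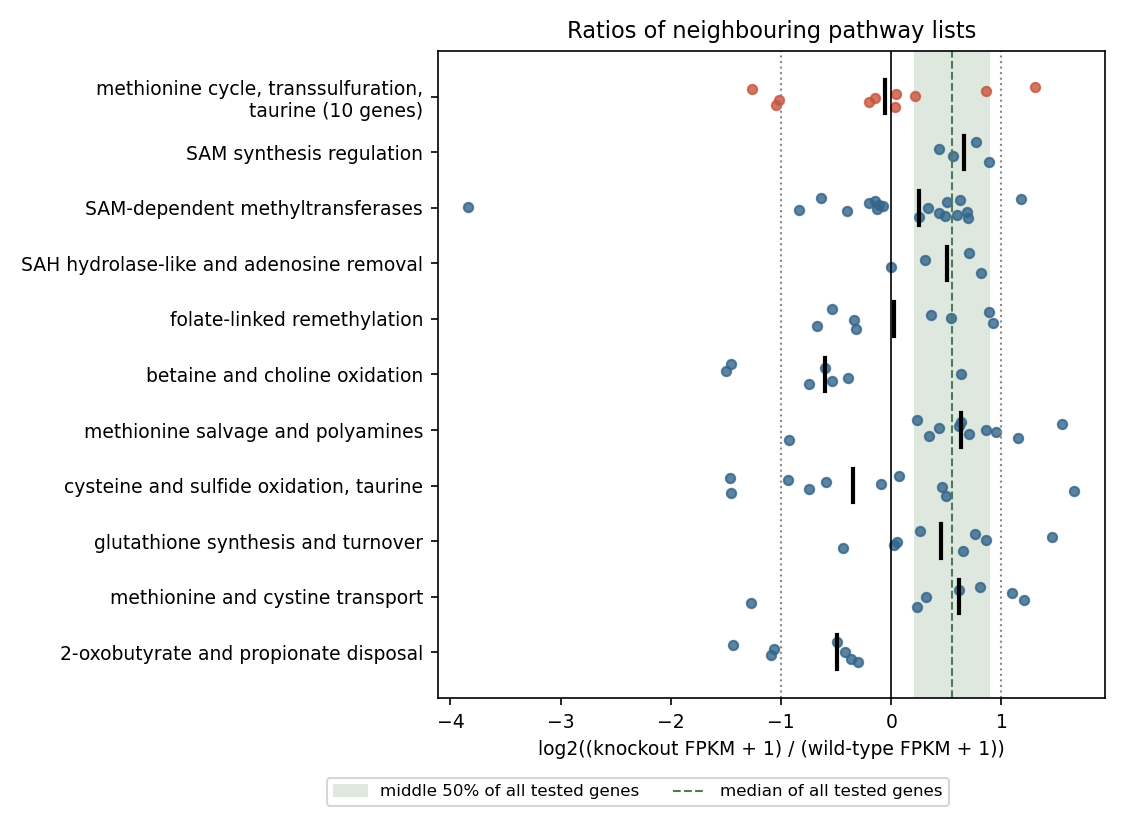
Log2((knockout FPKM + 1) / (wild-type FPKM + 1)) of every tested gene (points) on the list of 10 genes and on 10 neighbouring pathway lists, with each list's median as a black bar. The band and the dashed line mark the middle 50% and the median (0.55) of all tested genes, and dotted lines mark 2-fold. The medians of the 10 genes (-0.06), of folate-linked remethylation (0.02), of betaine and choline oxidation (-0.60), of cysteine oxidation (-0.34) and of 2-oxobutyrate disposal (-0.49) lie left of the band.

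The order of the 10 genes by level changed between the libraries. In the wild-type library it ran Mat1a, Bhmt, Cdo1, Ahcy, Gnmt, Cbs, Bhmt2, Cth, Csad and Mat2a, with the highest 55.2 times the lowest. Csad and Mat2a had overlapping counting intervals there (17.4 to 19.1 and 15.9 to 17.8 FPKM), and no other neighbours did. In the knockout library it ran Bhmt, Mat1a, Cdo1, Gnmt, Ahcy, Bhmt2, Cth, Cbs, Mat2a and Csad, with the highest 20.2 times the lowest and no overlap of neighbours. The 10 genes together held 0.837% of the reads in wild-type and 0.514% in knockout liver.

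The windows of 250 bases before the annotated start were taken from RefSeq (GRCm38.p6) for 7 of the 10 genes, without Mat1a, Cth and Cdo1. Windows with many CpG dinucleotides were found among genes with higher and with lower ratios. Mat2a held 29 CpG dinucleotides, more than 93.2% of all 32851 such windows, whose median was 6. Among the genes called lower, Cbs held 21 (above 83.7% of windows) and Bhmt held 5 (above 44.4%). Bhmt2 held 20, Ahcy 9 and Gnmt 6, and the 2 windows of Csad held 4 and 5. The windows of Mat2a (chr6:72439557-72439806, minus strand), Cbs (chr17:31637206-31637455, minus strand) and Bhmt (chr13:93637759-93638008, minus strand) are shown for this contrast, 5′ to 3′ on the gene's strand, with every CpG in capitals.
Mat2a: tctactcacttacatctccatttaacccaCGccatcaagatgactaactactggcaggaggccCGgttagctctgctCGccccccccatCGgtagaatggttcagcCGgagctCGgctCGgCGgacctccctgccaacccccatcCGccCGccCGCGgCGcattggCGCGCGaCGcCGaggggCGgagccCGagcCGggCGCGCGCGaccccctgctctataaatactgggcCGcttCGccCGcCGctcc
Cbs: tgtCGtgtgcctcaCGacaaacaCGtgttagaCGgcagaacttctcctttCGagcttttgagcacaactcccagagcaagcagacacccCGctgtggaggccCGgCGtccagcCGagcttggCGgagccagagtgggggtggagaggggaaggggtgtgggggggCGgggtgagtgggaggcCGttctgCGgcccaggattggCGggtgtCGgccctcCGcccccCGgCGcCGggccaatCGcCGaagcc
Bhmt: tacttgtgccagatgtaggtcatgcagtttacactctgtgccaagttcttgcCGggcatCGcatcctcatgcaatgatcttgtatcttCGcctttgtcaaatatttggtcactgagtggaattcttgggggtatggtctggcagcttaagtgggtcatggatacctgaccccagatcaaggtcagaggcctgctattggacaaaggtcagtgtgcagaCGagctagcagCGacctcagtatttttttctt
The letters TGATGCAA (a site form of ATF4 with C/EBP), TTGCGCAA (C/EBP) and CAAAGTCCA (HNF4) were searched on both strands and were in none of the 8 windows of these 7 genes, beside 0.791%, 0.164% and 0.384% of all windows. TGANNNNGC, the core of the NRF2 site, was in a window of Ahcy, Bhmt and Csad, 3 of 8 windows beside 35.2% of all windows. A match or its lack describes these letters in these windows and nothing more.

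The albumin gene Alb, already counted among the hepatocyte markers, had 50399 against 25492 FPKM. Afp, the alpha-fetoprotein gene, which is on none of the marker lists, had 239 against 7035 FPKM. Markers of other cell types also differed between the libraries. The 6 macrophage markers found summed to 203 and 459 FPKM, the 7 stellate and fibroblast markers to 171 and 445 FPKM, the 5 bile duct markers to 33.9 and 69.0 FPKM, with none at 0. The 6 endothelial markers summed to 108 and 127 FPKM, the 6 neutrophil markers to 216 and 111 FPKM, the 6 lymphocyte markers to 11.9 and 9.12 FPKM, and the 5 erythroid markers to 415 and 236 FPKM (Hbb-b1 at 0 in each). These sums do not allow for the higher ratios of all genes. Relative to all genes, the median log2 ratio of tested markers was 0.37 for macrophages, 0.49 for stellate cells and fibroblasts and 0.50 for bile duct. For endothelial, neutrophil, lymphocyte and erythroid markers it was -0.31, -1.63, -0.83 and -0.80. The 8 skeletal muscle markers summed to 0.195 FPKM in the wild-type (Acta1, Myh4, Myh1 and Myh8 at 0) and 72.1 FPKM in the knockout library, and the 6 kidney and adrenal markers to 0.530 and 1.17 FPKM. The part of these cell types in the ratios of the 10 genes was not tested.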

How the data were processed

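Each deposited table lists RefSeq accessions with 2 values that the authors computed, a whole-number read count and an FPKM, per the file headers. The submitters' processing notes name Bowtie 0.12.2 and build mm9. The sources used here do not say how reads were counted, whether strand was used or whether animals were pooled. Lines of 1 accession were summed (26449 accessions), and names came from a RefSeq table of GRCm38.p6 and GENCODE M21, matching 23419 accessions. The 3030 unmatched accessions held 1.99% of reads in the wild-type table and 1.98% in the knockout table. Each was kept as a gene of its own among the 26440 genes. Those with at least 1 FPKM in either library are also among the tested genes.

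From the authors' FPKM, log2 ratios were computed with a pseudocount of 1, which understates changes of low genes, for genes with at least 1 FPKM in either library. Folds in the text are plain FPKM ratios. Their 95% intervals are exact Clopper-Pearson intervals of the deposited read counts, scaled by 1.01, the median ratio of the FPKM worth of 1 read in the knockout to that in the wild-type table. Intervals of single levels are exact Poisson ones. Amplified reads are not independent molecules, so intervals cover counting error only. With 1 library per genotype there was no test.

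The members, gene lists and rules were chosen with earlier results of these data known. All 10 members are named. Of each other list up to 4 tested genes are named, the pair with the highest FPKM and the pair with the largest log2 ratio, with lists of 4 genes in full. Csf1r and Cd68 had no matching accession and are not analysed here. Gadl1, the relative of a member, the untested Slc7a11 and the sex-linked Xist and Ddx3y were named after their values were seen. Alternatives changed the pseudocount, the filter, the scaling, the choice of accession or the size rule. The hepatocyte centring was added after the data had been seen. Coding sequences came from GENCODE M21 transcripts matched by accession. The formulas of the log2 ratio and of the read ratio interval were tried on simulated libraries with counting error only. Centring and shares were not part of that trial. Python 3.11.15, numpy 2.4.6, pandas 2.3.3, scipy 1.17.1, matplotlib 3.10.9 and biopython 1.88 were used.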

Additional observations from a re-analysis of the deposited data

How the results depend on the processing

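The count of 3 genes lower among the 10 was unchanged with a pseudocount of 0.1, TPM and a size rule of 1.5-fold. It was also unchanged by centring on all genes and by leaving out the 20 most abundant genes in the rescaling. No filter, a filter of 5 FPKM and the highest accession could not change it. All 10 genes were above 5 FPKM in each library and had 1 accession each. The count lower was 2 with a pseudocount of 5 and by the read ratio interval, 0 at 4-fold and 0 after centring on the hepatocyte markers. The 1 gene higher became 0 after centring on all genes, 0 without the 20 most abundant genes, 2 at 1.5-fold, 0 at 4-fold and 5 after hepatocyte centring. The median of the 10 genes was -0.61 after centring on all genes, -0.39 without the 20 most abundant genes and 1.09 after hepatocyte centring. The Mat1a share differed between the libraries (knockout minus wild-type) by -8.21 percentage points from FPKM and by -6.76 from reads, which are not divided by length. Pseudocounts, filters, centring and size rules give no other value of that share. Among the named genes called 2-fold lower or higher, hepatocyte centring turned the sign of Bhmt (0.10), Cbs (0.12) and Dbt (0.060). No other such gene changed sign under any alternative run. Calls of low genes moved with the pseudocount. At 0.1 the named genes Ahcyl2 (1.01), Ada (1.46), Mtrr (1.21) and Ggct (1.07) were also called higher. At 5 the named genes Cbs, Prmt5, Amd1, Slc3a2, Slc3a1 and Dbt were no longer called. The medians of the betaine, cysteine oxidation and 2-oxobutyrate lists turned positive under that centring, where the median of all tested genes was 1.70.

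Over all tested genes, the count lower was 232 with a pseudocount of 5, 831 after centring, 687 at 1.5-fold, 94 at 4-fold and 80 after hepatocyte centring, against 368. The count higher was 3797 with a pseudocount of 0.1, 786 with 5, 3628 as TPM, 708 after centring, 1208 without the 20 most abundant genes, 5914 at 1.5-fold, 344 at 4-fold and 11035 after hepatocyte centring, against 2396. The median was 0.68 with a pseudocount of 0.1, 0.30 with 5, 0.31 with no filter, 0 after centring, 0.28 without the 20 most abundant genes, 1.70 after hepatocyte centring and 0.70 from reads, against 0.55. On the TPM scale values are larger than FPKM, so the pseudocount and filter of 1 weigh less. The other causes were not tested. No paired analysis was possible because there was 1 library per genotype.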

Other observations

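The carbon that Cth leaves after releasing cysteine, 2-oxobutyrate, is oxidised to propionyl-CoA and enters the citric acid cycle through methylmalonyl-CoA. The 7 tested genes of this route had log2 ratios from -1.44 to -0.30 and a median of -0.49 (-1.04 relative to all genes). Of them 3 were lower by 2-fold and 0 higher, beside 2.95% and 19.2% of all tested genes, and relative to all genes 4 were lower, beside 6.66%. Pcca, which encodes the alpha subunit of propionyl-CoA carboxylase, had 15.6 FPKM in wild-type against 5.11 FPKM in knockout liver, which is 3.05-fold lower (2.72 to 3.42). Dbt, the acyltransferase of the branched-chain keto acid dehydrogenase complex, had 26.4 against 11.9 FPKM, or 2.22-fold lower (2.06 to 2.39). The most abundant genes of the route, Bckdha and Bckdhb, encode the E1 subunits of that complex and had 84.8 against 68.7 FPKM and 69.0 against 53.2 FPKM. Relative to the hepatocyte markers 6 of the 7 genes turned positive, among them Dbt (0.060), Bckdha (0.85) and Bckdhb (0.78). The median of the 7 genes was then 0.66, with 0 called lower or higher. All 12477 tested genes had a median of 1.70 on that scale, with 80 called lower and 11035 higher.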
